A study of Cubamyces sp. BRFM 1775 with 14 samples.

Results

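The response of the wood-decay fungus Leiotrametes sp. BRFM1775 to pine, a softwood, was compared with its response to aspen, a hardwood. The comparison takes the deposited pine value minus the aspen value for each gene of the table, and all 1052 of 1052 genes are members. It rests on 6 of the 14 labelled samples, 3 on pine and 3 on aspen. Pine cultures were shaken at 120 rpm and 30 °C for 3 days in 100 ml of mineral medium with 15 g/l of sifted pine fragments below 2 mm and 2.5 g/l maltose. Aspen cultures had the same time, temperature, shaking and volume, with 15 g/l of aspen that was Wiley-milled at 1 mm. The labels misprint the maltose concentration of the aspen cultures. The milling and the maltose level therefore cannot be told apart from the kind of wood. The other cultures held 15 g/l wheat straw or microcrystalline cellulose with 2.5 g/l maltose, or 20 g/l maltose alone, and they enter here as a scale against which the woods are placed.

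Softwoods such as pine hold lignin built mainly from guaiacyl units, and galactoglucomannan as their main hemicellulose. Hardwoods such as aspen hold lignin of guaiacyl and syringyl units, with xylan as the main hemicellulose. White-rot fungi, the group to which Leiotrametes belongs, secrete oxidoreductases that attack lignin and hydrolases that cut cellulose and hemicelluloses. The deposited table identifies genes by protein number of the MycoCosm genome portal and does not pair the numbers with names. Genes are therefore described by their number and by their behaviour on the other substrates, and no enzyme family is named.

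Each deposited value is a mean over libraries of log2(normalised reads + 1), where normalised reads are reads divided by the size factor of the library. From these means the reads in each library could be recovered for 799 genes on pine, 830 on aspen and 774 on both woods. The size factors were 0.708, 0.891 and 0.906 on pine and 0.873, 1.16 and 1.29 on aspen. The median recovered gene had 196, 209 and 206 reads in the pine libraries, against 232.5, 341.5 and 351 reads in the aspen libraries. Libraries are numbered here by size factor, since the recovered reads carry no label. Pine library 1 stood apart: over genes it correlated with the other pine libraries at 0.946 and 0.953, while those correlated with each other at 0.986. It lay farthest from the pine mean for 452 of the 774 genes. The aspen libraries correlated with each other at 0.974 to 0.982. The labels do not say whether the replicates were separate flasks, so the p-values reflect only variation between libraries, possibly technical.

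The transcript profiles on the woods differed in both directions, and for most single genes the deposited difference was below 2-fold. The difference was at least 2-fold upward on pine for 194 genes and at least 2-fold downward for 101. It reached 4-fold for 23 and 16 genes in those directions. The lower and upper quartiles were -0.53 and 0.76 on the log2 scale, with a median of 0.11, and the range was -3.90 to 3.95. The sign of the median was not stable: it was -0.060 with each substrate centred on its median, -0.0032 after quantile normalisation and -0.064 over the genes with reads recovered on both woods. A gene was called when limma, a linear model with a moderated spread across all genes, gave a Benjamini-Hochberg adjusted p below 0.05 and the log2 difference was at least 1. By this rule 173 genes were higher on pine, 16.4% of those tested, and 68 were lower, 6.46%. For 320 genes the 95% confidence interval of the difference lay wholly between -1 and 1, so for these a 2-fold difference either way lay outside the interval. The remaining 491 uncalled genes had intervals that reached a 2-fold difference.

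The balance between the directions depended on scaling and on which genes had recovered reads. Genes higher on pine made up 71.8% of the calls as deposited, 58.2% after quantile normalisation and 55.8% after centring each substrate on its median. With each library realigned by its median offset from gene averages, the share was 74.9%, from 179 higher and 60 lower. Among the 774 genes with reads recovered on both woods, 83 were higher on pine and 57 lower. A fit on those genes alone called 83 higher, 10.7%, and 56 lower, 7.24%. The other 278 genes, 266 of them above 12 on the log2 scale on at least 1 wood, gave 90 higher and 11 lower, and their spread was estimated partly or wholly from other substrates. Of the 140 called genes with recovered reads, 136 had pine and aspen libraries that did not overlap, as had 406 of all 774, or 52.5%. Without pine library 1, the fit on the recovered genes called 67 higher and 69 lower.

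Gene 1256766 had the largest called rise among genes with recovered reads and no overlap. It had 88, 108 and 109 reads in the pine libraries, against 19, 26 and 20 reads in the aspen libraries. The pine libraries were nearly equal once normalised and all lay above every aspen library. The log2 level was 6.94 ± 0.02 on pine and 4.37 ± 0.28 on aspen (SD, 3 libraries each). The difference was 2.57 (SE 0.32, limma adjusted p = 0.000362). On the other substrates the level was 4.77 on wheat straw, 2.92 on cellulose and 2.73 on maltose, so aspen lay near wheat straw and pine above both.

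Gene 1318101 had 3439, 1622 and 1166 reads in the pine libraries, against 372, 453 and 526 reads in the aspen libraries. Pine library 1 was well above the other pine libraries, and the aspen libraries were close together. The log2 level was 11.14 ± 0.99 on pine and 8.68 ± 0.06 on aspen (SD, 3 libraries each). The difference was 2.46 (SE 0.41, limma adjusted p = 0.00129).

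Gene 1327319 had the largest called fall among genes with recovered reads and no overlap. It had 225, 53 and 22 reads in the pine libraries, against 948, 720 and 1104 reads in the aspen libraries. All aspen libraries lay above all pine libraries, and pine library 1 was again the highest of its wood. The log2 level was 6.30 ± 1.86 on pine and 9.70 ± 0.40 on aspen (SD, 3 libraries each). The difference was -3.41 (SE 0.75, limma adjusted p = 0.00503), and -4.41 without pine library 1.

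Gene 302323 had 62, 27 and 23 reads in the pine libraries, against 413, 272 and 498 reads in the aspen libraries. The groups did not overlap. The log2 level was 5.39 ± 0.95 on pine and 8.46 ± 0.52 on aspen (SD, 3 libraries each), a difference of -3.07 (SE 0.50, limma adjusted p = 0.00114). Wheat straw, at 7.96, was close to aspen, while maltose, at 5.01, was close to pine.

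**Figure D1:**
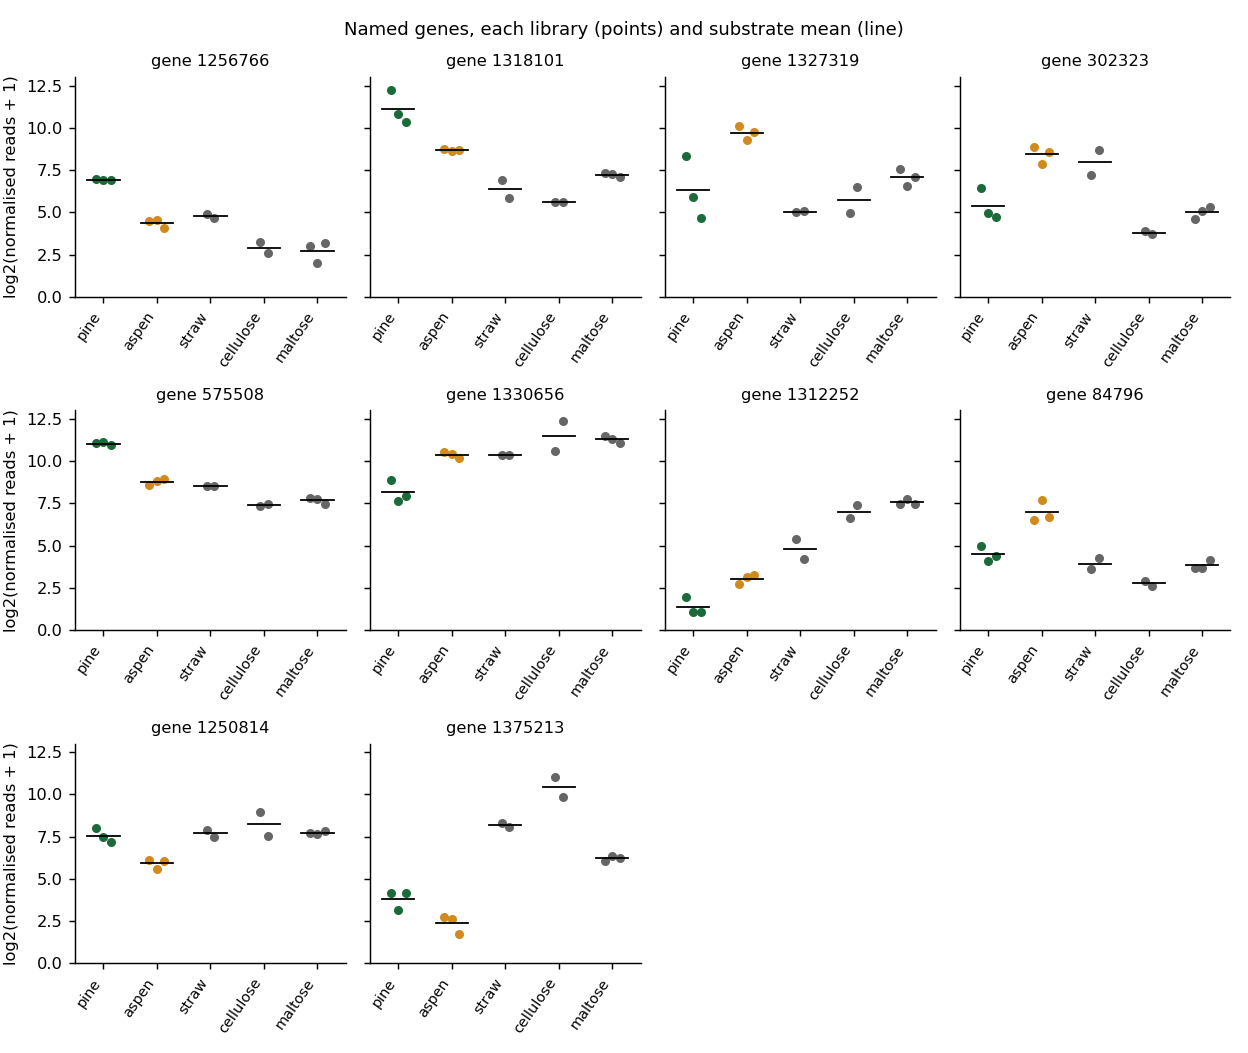
Log2(normalised reads + 1) in every recovered library (points) with the substrate mean (line) for the 10 genes named by rule, pine left of aspen and then wheat straw, cellulose and maltose. Gene 1256766 had pine libraries at 6.92 to 6.97 and aspen libraries at 4.05 to 4.55, while gene 1327319 had pine libraries spread between 4.66 and 8.32, all below the aspen libraries.

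The largest differences of all fell on abundant genes outside this rule, and 2 of them were chosen after their values were seen. Gene 1347896 had a deposited log2 level of 14.16 on pine and 10.21 on aspen, a difference of 3.95. It stood at 13.08 on wheat straw, 13.90 on cellulose and 15.70 on maltose, so aspen was the substrate apart. Its libraries were not recovered on either wood, so the overlap of pine with aspen could not be examined. Gene 1374521 was at 8.51 on pine and 12.41 on aspen, a difference of -3.90. It had 409, 249 and 270 reads in the pine libraries, and its aspen libraries were not recovered. At the other end of the range, gene 1331693 was the only one with 0 reads in all 3 aspen libraries. A count of 0 in a single library, taken alone, allows an expected count of up to about 3 reads. Gene 1331693 had 3, 0 and 0 reads in the pine libraries, so no fold is given. No recovered gene had 0 reads in all 3 pine libraries.

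The level of a gene on the non-wood substrates went with the sign of the difference. Genes were ranked by their mean on wheat straw, cellulose and maltose, which uses no wood library. In the lowest quartile of 263 genes the median of pine minus aspen was -0.40, and 176 of them were lower on pine. In the next 2 quartiles the medians were -0.17 and 0.36, and in the highest quartile 0.65, with 200 of 263 genes higher on pine. Calls followed the same order. In the lowest quartile 14 were called higher, 5.32% against 16.4% in the whole table, and 28 lower, 10.6% against 6.46%. In the highest quartile 73 were called higher, 27.8%, and 5 lower, 1.90%. Reads of both woods were recovered for only 52 of the 263 genes of the highest quartile. For the rest the spread came partly or wholly from other substrates. Over the 263 lowest genes, all of them recovered, the median level was 4.94, 4.92 and 4.72 in the pine libraries, against 5.14, 5.15 and 5.10 in the aspen libraries. No pine library reached any aspen library there. Over the 52 recovered genes of the highest quartile it was 11.27, 11.08 and 11.08 in the pine libraries, against 10.83, 10.96 and 10.69 in the aspen libraries. There every pine library lay above every aspen library. Those 52 genes, all at or below 12 on both woods because of the limit of the recovery, had a median difference of 0.23. In the lowest quartile the median was -0.15 with 32 reads added in place of 1 before the log.

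**Figure D2:**
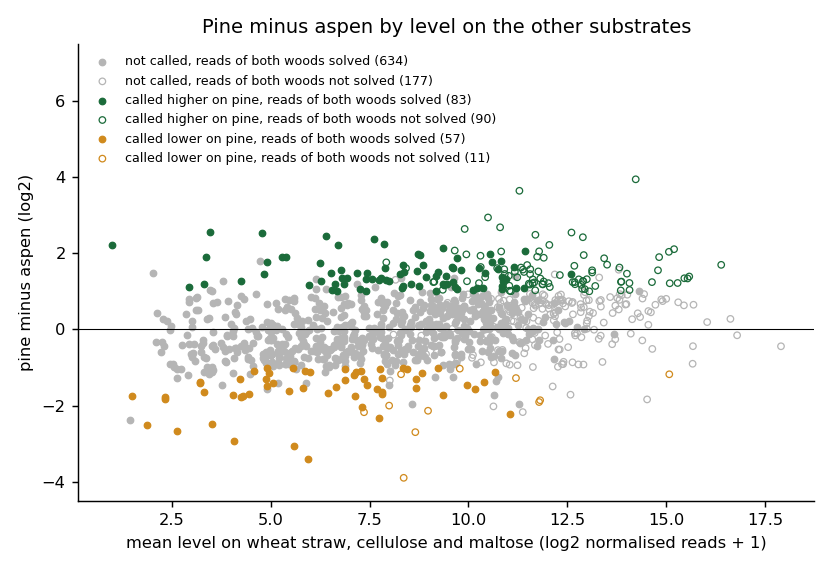
Pine minus aspen on the log2 scale (vertical) against the mean level on wheat straw, cellulose and maltose (horizontal) for 1052 genes, filled where the reads of both woods were recovered and open where they were not. Genes called lower on pine lie mostly at low levels and genes called higher mostly at high levels, and the open points are mostly high: 90 of the 173 higher calls and 11 of the 68 lower calls.

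The same tilt was visible in the spread of whole libraries. Over the 752 genes recovered in all 13 libraries, the SD of the log2 levels was 2.66 to 2.73 in the pine libraries, against 2.41 to 2.47 in the aspen libraries. The 10th percentile was 3.84 to 3.93 in the pine libraries and 4.24 to 4.33 in the aspen libraries. It was 3.49 to 3.94 in the 7 libraries of the other substrates, so at the low end the aspen libraries lay above all others. The 90th percentile was 10.83 to 11.22 in the pine libraries and 10.62 to 10.67 in the aspen libraries. Quantile normalisation, which gives every library the same distribution, left medians of -0.041 in the lowest quartile and 0.063 in the highest. Whether the tilt came from the cultures or from the libraries was not tested.

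**Figure D3:**
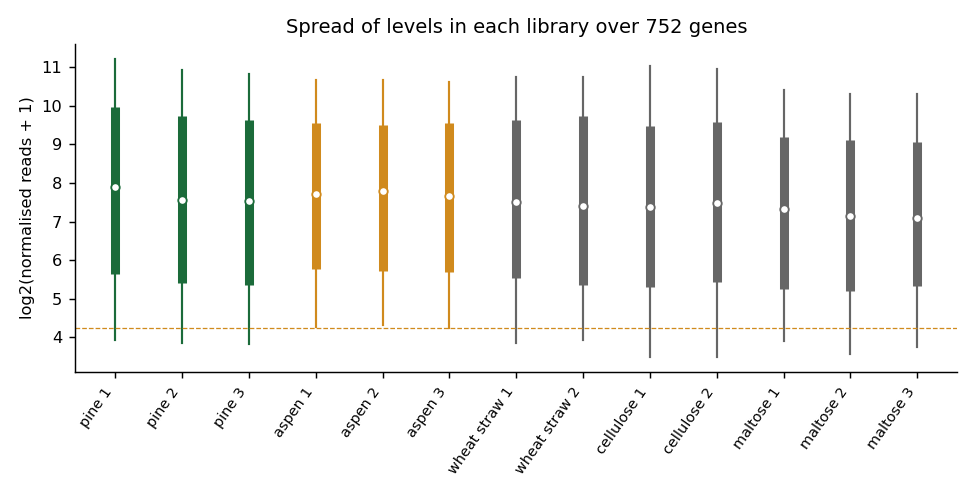
Spread of log2(normalised reads + 1) over 752 genes in each of 13 recovered libraries, pine and aspen first, with the 10th to 90th percentile (thin line), the quartiles (thick bar) and the median (point). The dashed line marks the lowest 10th percentile among the aspen libraries, 4.24, and the thin lines of all 10 other libraries reach below it.

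Genes strongly induced on pure cellulose were lower on pine than on aspen, against the tilt with level. The 35 genes raised at least 64-fold on cellulose over maltose, a log2 difference of 6 or more, had a median of pine minus aspen of -1.03, compared with 0.11 over all genes. Of these, 31 were lower on pine, 18 of them by 2-fold or more. Their median level was 11.11 on pine and 12.45 on aspen, and it was 12.65 on wheat straw, 14.19 on cellulose and 6.13 on maltose. All 35 were above their maltose level on both woods, but the class was chosen for a low maltose level, so this is partly built in. In the fit of all libraries 5 of the 35 were called lower on pine, 14.3% against 6.46% in the whole table, and 0 were called higher. At an unadjusted limma p below 0.05 the counts were 6 lower and 0 higher. Over all 1052 genes they were 203 lower and 346 higher, so the share of lower genes was no larger in this class. That fit shares 1 spread per gene among all substrates, and these genes varied most on maltose, where the median SD between libraries was 1.80, against 0.35 on pine and 0.26 on aspen. The median SE of the difference was 0.78 for these genes and 0.25 over all genes.

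Among the 14 of these genes with reads recovered on both woods, the median level was 9.57, 9.93 and 10.30 in the pine libraries, against 11.05, 11.05 and 10.97 in the aspen libraries. Every pine library lay below every aspen library, and pine library 1, the highest over all genes, was the lowest here. Gene by gene, 10 of the 14 had all pine libraries below all aspen libraries, against 26.7% of all 774 recovered genes. All pine libraries lay above for 1, against 25.7%. The fit of all libraries called 1 of the 14 lower on pine. That was close to the share over all recovered genes, 7.24% or 56 of 774 in the fit on those genes alone. A fit on the pine and aspen libraries alone, chosen for this class after the data were seen, called 9 of the 14 lower and 0 higher. Over all 774 genes that fit called 66 lower, 8.53%, and 83 higher, 10.7%. Gene 236437, the only called gene of this class with recovered reads in the fit of all libraries and named after its values were seen, had 36, 30 and 39 reads in the pine libraries. It had 128, 255 and 211 reads in the aspen libraries, all above pine. Its log2 level was 5.42 on pine and 7.45 on aspen, a difference of -2.03 (SE 0.65, limma adjusted p = 0.0294), and it reached 11.42 on cellulose against 2.99 on maltose.

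Weaker induction on cellulose went with smaller differences. The median of pine minus aspen was -0.51 over the 16 genes raised by 4 to 6 on the log2 scale, 0.00 over the 47 raised by 2 to 4 and 0.22 over the 98 raised by 1 to 2. It was 0.19 over the 765 genes within 2-fold on cellulose and maltose, and -0.19 over the 91 genes that were lower on cellulose by more than 2-fold. The strongest responders to wheat straw behaved like those to cellulose: 27 genes raised by 6 or more had a median of -0.91, and 22 of them were lower on pine. The lists share 20 genes, and both were set against the same maltose libraries. The median of genes raised by 6 or more on cellulose kept its sign under the 3 other scalings tried, at -0.99 to -1.47. The value of -1.47 is that after quantile normalisation, where the class was formed anew. Over the 14 of them with recovered reads it was -1.25, and -0.90 to -1.40 in the fits that left out 1 wood library.

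**Figure D4:**
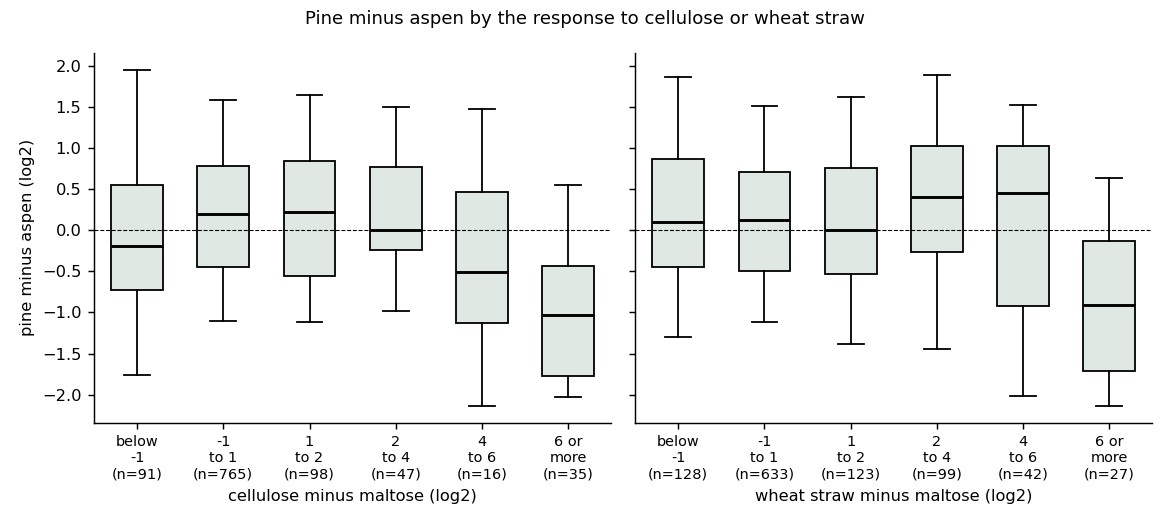
Pine minus aspen on the log2 scale (vertical) for genes grouped by cellulose minus maltose (left) or wheat straw minus maltose (right), with the median (line), quartiles (box) and 5th to 95th percentile (whiskers). The median lies near 0 in most groups and at -1.03 and -0.91 in the groups raised by 6 or more.

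Genes that responded to wheat straw and not to cellulose went the other way. The 66 genes raised at least 4-fold on wheat straw over maltose, but less than 2-fold on cellulose, had a median of pine minus aspen of 0.67, and 49 of them were higher on pine. Their median level was 12.49 on pine and 11.81 on aspen, against 11.71 on wheat straw, 8.13 on cellulose and 8.03 on maltose. All 66 were above maltose on both woods, though this class too was chosen for a maltose level below that on wheat straw. Of the 66, 53 were higher on pine than on wheat straw, and 35 were higher on aspen than on wheat straw. This class ran with the tilt by level, unlike the genes strongly induced on cellulose. Among genes with a mean of at least 9 on the non-wood substrates, the median was 0.69 over the 37 of this class and 0.51 over all 518. Called genes of the class numbered 24 higher, 36.4% against 16.4% in the whole table and 27.8% in the highest quartile by level. Those called lower numbered 4, 6.06% against 6.46% in the whole table.

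For the 29 of these genes with reads recovered on both woods, the median level was 10.30, 10.07 and 10.06 in the pine libraries, against 9.12, 9.25 and 9.28 in the aspen libraries. The groups did not overlap. Of the 29 genes, 17 had all pine libraries above all aspen libraries, 58.6% against 25.7% of the 774. All pine libraries lay below for 5, 17.2% against 26.7%. In the fit on the woods alone 11 of the 29 were called higher, 37.9% against 10.7% of the 774. That fit called 3 lower, 10.3% against 8.53%. The fit of all libraries called 10 higher and 3 lower, against 10.7% and 7.24% of the 774 in the fit on recovered genes. Gene 1256766, described above, belongs to this class, and so does gene 302323, which went the opposite way. Gene 1371657, chosen after its values were seen, had 2090, 1839 and 1895 reads in the pine libraries, against 442, 692 and 638 reads in the aspen libraries. Its level on pine, 11.19, was near that on wheat straw, 11.65. Its level on aspen, 9.05, was nearer to maltose, 8.27, and cellulose, 8.12, than to wheat straw. The difference between the woods was 2.14 (SE 0.30, limma adjusted p = 0.000613). Gene 696562, also chosen after its values were seen, ran the other way with 1149, 913 and 965 reads on pine and 3623, 4531 and 5150 reads on aspen, a difference of -1.73 (SE 0.25, limma adjusted p = 0.000688). The class median stayed above 0 under each scaling. It was 0.25 after quantile normalisation, where the class was formed anew, and 0.50 with each substrate centred on its median.

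Genes raised at least 4-fold on both cellulose and wheat straw, 73 in all, had a median of -0.53. In the 38 with recovered reads it was 9.57, 9.53 and 9.57 in level in the pine libraries, against 10.06, 10.16 and 9.98 in the aspen libraries, again without overlap. A further 12 genes were raised at least 4-fold on cellulose and less than 2-fold on wheat straw, with a median of 0.70, but the 8 recovered ones overlapped between the woods. The 287 genes whose wheat straw and cellulose values both lay within 0.5 of maltose had a median of 0.14. Of these, 43 were called higher, 15.0% against 16.4% in the whole table, and 12 lower, 4.18% against 6.46%. Over all 1052 genes the relation with induction was weak: the Pearson correlation of pine minus aspen was -0.14 with cellulose minus maltose and -0.11 with wheat straw minus maltose, and Spearman's rho was 0.07 and 0.00. With the mean level on the other substrates it was 0.34, with a rho of 0.37. Genes are not independent replicates, and these values share the scaling of the table.

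The called genes were then placed among the other substrates, as a description that uses the same wood values as the calls. Of the 173 genes higher on pine, 139 stood above wheat straw, cellulose and maltose on pine. The same genes on aspen were above all of those substrates in 27 cases, between them in 77 and below in 69. Their median was 1.32 above the mean of the other substrates on pine and -0.09 relative to it on aspen. Of the 68 genes lower on pine, 12 stood above all of the other substrates on pine, 30 between them and 26 below. On aspen 41 of the 68 stood above. Their median was -0.44 relative to the mean of the other substrates on pine and 1.12 on aspen. Over all genes, 460 stood above the other substrates on pine and 354 on aspen.

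A stricter description asked on which genes 1 wood was called in the same direction against the other wood, wheat straw, cellulose and maltose alike. Pine was above all 4 for 58 genes, 5.51% of the table, and below all 4 for 11, 1.05%. Aspen was above all 4 for 16 genes, 1.52%, and below all 4 for 9, 0.856%. The 58 genes were abundant, with a median level of 13.67 on pine, 11.97 on aspen, 12.12 on wheat straw, 11.05 on cellulose and 10.41 on maltose, and reads of both woods were recovered for only 15 of them. The 16 genes highest on aspen were of modest level, at a median of 6.27 on pine, 8.18 on aspen, 5.18 on wheat straw, 3.85 on cellulose and 4.47 on maltose, and reads were recovered for 14 of them. On the 58 genes aspen and wheat straw thus had close medians, and on the 16 genes pine came second to aspen.

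These counts moved with scaling and with single libraries. Pine above all 4 fell to 14 genes after quantile normalisation and to 36 with each substrate centred on its median. With each library realigned by its median offset it was 53 genes. In the fit on genes recovered on both woods, pine was above all 4 for 15 genes, and for 25 without pine library 3. There pine was below for 9 genes, and for 14 without pine library 1 or without pine library 3. Aspen was above for 14 genes, and for 8 without aspen library 2, and below for 5 genes, and for 3 without aspen library 3.

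Gene 575508 followed gene 1318101 among the genes high on pine, ranked by the smallest of the 4 differences. It had 1520, 1965 and 1777 reads in the pine libraries, against 333, 523 and 636 reads in the aspen libraries. The log2 level was 11.04 ± 0.09 on pine and 8.78 ± 0.19 on aspen (SD, 3 libraries each), a difference of 2.25 (SE 0.14, limma adjusted p = 9.5e-06). Wheat straw was at 8.53, cellulose at 7.40 and maltose at 7.68, so aspen and wheat straw lay together and pine apart.

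Gene 1330656 was lowest on pine. It had 328, 177 and 225 reads in the pine libraries, against 1312, 1557 and 1509 reads in the aspen libraries. Its level on aspen, 10.38, was that of wheat straw, 10.36, within the spread of the aspen libraries, and pine minus aspen was -2.23 (SE 0.40, limma adjusted p = 0.00188). Gene 1312252 was nearly silent on both woods, with 2, 1 and 1 reads in the pine libraries and 5, 9 and 11 reads in the aspen libraries. Its level was 1.36 on pine, 3.04 on aspen, 4.77 on wheat straw, 7.02 on cellulose and 7.55 on maltose. The step between the woods was -1.68 (SE 0.37, limma adjusted p = 0.00494) and rests on these few reads.

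Gene 84796 was highest on aspen, as was gene 1327319. It had 22, 14 and 18 reads in the pine libraries, against 80, 243 and 131 reads in the aspen libraries, and its levels of 3.91 on wheat straw, 2.76 on cellulose and 3.84 on maltose were nearer to the 4.48 on pine than to the 6.98 on aspen. The difference between pine and aspen was -2.49 when taken as pine minus aspen (SE 0.37, limma adjusted p = 0.000688). Gene 1250814 was lowest on aspen, with 178, 156 and 130 reads in the pine libraries and 59, 55 and 86 reads in the aspen libraries. Its level was 7.54 on pine and 5.93 on aspen, while wheat straw, cellulose and maltose lay between 7.70 and 8.22. Gene 1375213 had 12, 7 and 15 reads in the pine libraries and 5, 6 and 3 reads in the aspen libraries, against 2271 and 1063 reads in the cellulose libraries. It was thus low on both woods, and lower on aspen by 1.44 (SE 0.39, limma adjusted p = 0.013).

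**Figure D5:**
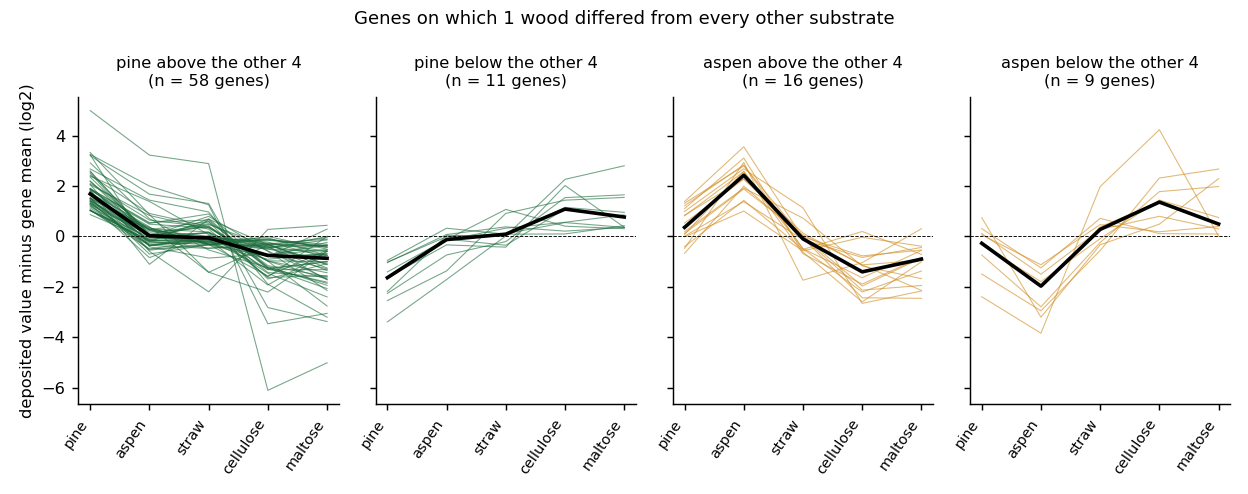
Deposited log2 value minus the gene's mean over 5 substrates (vertical) for genes on which 1 wood was called against all 4 other substrates, 1 thin line per gene and the median in black. The choice of genes fixes the extreme wood; the medians of the remaining substrates show aspen at 0.03 and wheat straw at -0.06 on the 58 genes high on pine, and pine at 0.36 on the 16 genes high on aspen.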

How the data were processed

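Polyadenylated RNA was sequenced from mycelium frozen with its remaining substrate, per the labels' protocols. The deposited table holds 1 normalised log2 read count per substrate, per the file headers. TopHat2, HTSeq and DESeq 1.5 are named in the submitters' processing notes, with no role given. The genome build was not given in the sources used here. Nor was it stated how libraries were combined or how the 1052 genes were chosen. The deposited values were recomputed as means of log2(reads × scale + 1). The 16 lowest values of a column gave the scales, and the 60 lowest served as the check, and these all came out as whole reads within 1e-09. With the scales 1% off, at most 1 did. Genes above 12 on the log2 scale were not attempted in columns of 3 libraries, and genes with several solutions were left out (8 on pine and 13 on aspen). The 13 libraries found include 2 on cellulose, where the labels list 3 samples. Tested on simulated data made like the pine column, the recovery solved 804 genes, and the reads of all 804 were right. For levels above 10.5 in columns of 3 libraries, the search covered 2 on each side of the mean on the log2 scale. The simulated column reused the recovered pine reads, so it hardly tested genes with libraries spread beyond the range searched.

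The pine and aspen columns were compared with limma 3.58.1 in R 4.3.3, on a fit of all 13 libraries with the spread allowed to vary with level and Benjamini-Hochberg adjustment over 1052 genes. Substrate means equal the deposited values, and a substrate without recovered reads adds nothing to a gene's spread. Tested on simulated reads for pine minus aspen over 1052 genes, the fit found 27 of 67 true 2-fold changes. It found 63 of 67 true 4-fold and 65 of 66 true 8-fold changes, and it wrongly called 5 of the 852 genes left as they were. The simulated reads had the same spread on every substrate, no tilt with level and no library apart. The count of wrong calls therefore need not hold for the real libraries. Differences understate the change of genes with few reads, because 1 is added before the log, and read counts limit precision by counting error in such genes. Per comparison, the named genes are the 2 per direction that differed most among called genes with recovered, non-overlapping libraries. The difference ranked was pine minus aspen, or the smallest of the 4 differences where 1 wood was set against all other substrates. No 2 libraries of a wood agreed within sampling noise (lowest chi-square per degree of freedom 13.0), so all 6 were kept as separate. The comparison, gene classes and tests were chosen with earlier results of these data known. Alternatives covered the scaling, the constant added, low values, the spread, the genes and libraries in the fit, and each wood library left out. The recovery used Python 3.11.15 with numba 0.67.0 and NumPy 2.4.6, and matplotlib 3.10.9 made the figures.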

Additional observations from a re-analysis of the deposited data

How the results depend on the processing

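The 4 genes named for pine minus aspen kept their direction and their call under each alternative that included them. Gene 1256766 was not among the genes with a mean of at least 5. With each substrate centred on its median, 107 genes were lower on pine, the overall median was -0.060, pine was above all other substrates for 36 genes and below for 22, the lowest quartile by level had a median of -0.57 and the genes raised on wheat straw and not on cellulose one of 0.50. After quantile normalisation with classes formed anew, 106 genes were higher on pine, the overall median was -0.0032, pine was above all others for 14 genes, and the medians were -0.041 in the lowest quartile, 0.063 in the highest, -1.47 for genes raised by 6 or more on cellulose and 0.25 for those raised on wheat straw only. Without a minimum difference 294 genes were higher and 159 lower, and at 4-fold 23 and 13. Among genes with a mean of at least 5, aspen was above all others for 10. On the genes recovered on both woods alone, 83 were higher, the overall median was -0.064 and that of the highest quartile 0.23. Adding 32 reads in place of 1 there gave 30 lower, 465 within 2-fold, 4 with pine below all others and -0.15 in the lowest quartile. With only pine and aspen libraries, 9 of the genes raised by 6 or more on cellulose were lower on pine, against 1. Leaving out 1 wood library at a time gave 64 to 94 higher, 42 to 69 lower, 12 to 25 genes with pine above all others, 8 to 14 with pine below, 8 to 18 with aspen above, 3 to 7 with aspen below and 0.44 to 0.73 for the median of genes raised on wheat straw only. Beyond the contrasts in scaling and in the spread, the cause of these shifts was not tested. No paired analysis was possible because the recovered libraries carry no replicate number. The depth limits genes with few reads: 9 genes had at most 3 reads in every pine library and 6 in every aspen library.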
